A study of Mus musculus with 2 samples.

Results

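The genes of the activin, inhibin and follistatin system were taken by symbol from the feature lists of both libraries, which gave 10 of 31055 features: *Inha*, *Inhba*, *Inhbb*, *Fst*, *Fstl1*, *Acvr1b*, *Acvr2a*, *Acvr2b*, *Tgfbr3* and *Tgfbr3l*. The cells came from C57/Bl6J mouse pituitaries at postnatal day 3 (P3), with the genotype *Sox9* iresGFP/+ in both sexes and no treatment. The GFP+ fraction was sorted by flow cytometry and made into 1 droplet library from 3 pooled male pituitaries and 1 from 3 pooled female pituitaries. Because the sort read GFP and not SOX9 itself, recent descendants of stem cells (SCs) were collected with the SCs, and the sorted cells are no sample of the whole gland. With 1 library per sex there was no replicate check and no test was made. All intervals are 95% intervals that cover counting error only.

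Activins are dimers of the βA and βB subunits encoded by *Inhba* and *Inhbb*. They bind the type II receptors ACVR2A and ACVR2B, which recruit the type I receptor ACVR1B and signal through SMAD proteins. In the pituitary, locally made activin B is known to promote *Fshb* transcription in gonadotrophs. Inhibins pair the α subunit of *Inha* with a β subunit and oppose activins through the coreceptors TGFBR3 (betaglycan) and TGFBR3L, while follistatin, encoded by *Fst*, binds and neutralises activins.

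Cells were assigned to 6 classes by raw counts of unique molecular identifiers (UMIs) of marker genes, none of which is a member. The classes were stem (*Sox2*, *Sox9*, no *Lef1*), differentiating (*Lef1*), gonadotroph (*Cga* with *Gnrhr*, *Lhb*, *Fshb* or *Nr5a1*), *Pou1f1* lineage, *Pomc* lineage and mesenchymal (*Dcn* and collagens). They held 1599 male and 1666 female stem cells, 888 and 603 differentiating cells, 326 and 24 gonadotrophs, 790 and 282 *Pou1f1* lineage cells, 229 and 127 *Pomc* lineage cells, and 677 and 315 mesenchymal cells. The median UMIs per cell of a class ranged from 7737 in male mesenchymal to 20357 in male *Pomc* lineage cells. No class was given to 5839 of 10410 male and 2673 of 5711 female cells, and 19 barcodes occurred in both libraries. In 5 classes the summed level of a list of markers was above that of the other classes in both libraries, and differentiating cells had no such list. The listed markers were outside the gate of their class, except *Pax7* and *Tbx19* for *Pomc* lineage cells. These are gate genes, so that part of the check was set by the gate. An example is 889 and 891 CPM (UMIs of the gene per 1000000 UMIs of the class) for 5 markers in male and female gonadotrophs, against 535 and 483 CPM in differentiating cells. The 24 female gonadotrophs limit every female value of that class. Levels were not compared between genes.

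The 250 bases before the RefSeq start site (GRCm38.p6) were matched for 8 of 10 members, without *Fst* and *Tgfbr3*. They are shown for *Tgfbr3l*, whose level was highest in gonadotrophs, and for *Inhbb*, whose level was highest in stem cells. The *Tgfbr3l* window is chr8:4247964-4248213 on the + strand and the *Inhbb* window chr1:119422249-119422498 on the − strand, both written 5′ to 3′ with each CpG in capitals.
Tgfbr3l: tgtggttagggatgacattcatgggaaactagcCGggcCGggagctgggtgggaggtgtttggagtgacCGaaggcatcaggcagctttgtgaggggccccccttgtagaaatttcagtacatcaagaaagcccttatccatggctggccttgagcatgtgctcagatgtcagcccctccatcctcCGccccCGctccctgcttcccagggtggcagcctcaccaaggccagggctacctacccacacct
Inhbb: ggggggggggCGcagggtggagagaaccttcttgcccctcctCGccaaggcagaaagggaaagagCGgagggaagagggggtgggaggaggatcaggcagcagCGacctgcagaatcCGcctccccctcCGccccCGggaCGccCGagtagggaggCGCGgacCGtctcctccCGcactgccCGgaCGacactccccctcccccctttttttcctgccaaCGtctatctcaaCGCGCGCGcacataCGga
The *Tgfbr3l* window held 5 CpG and the *Inhbb* window 21, against a median of 6 and quartiles of 2 and 16 over 32851 promoters. *Acvr2a* had 49 CpG, *Acvr1b* 42, *Acvr2b* 24, *Fstl1* 16, *Inha* 4 and *Inhba* 3. The letters AAGGTCA (NR5A1-type), TGACGTCA (CRE) and CAGACA (SMAD) were searched on both strands and were in 0 of the 8 windows. They were in 4.08%, 1.55% and 17.1% of all windows of that length. By the mm10 gene positions, the *Inha* window (chr1:75507359-75507608) lies inside the gene (chr1:75507077-75510366, + strand). The *Acvr2b* and *Fstl1* windows run past the annotated gene start. For these genes the window is thus not wholly upstream of the annotated gene.

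**Figure D1:**
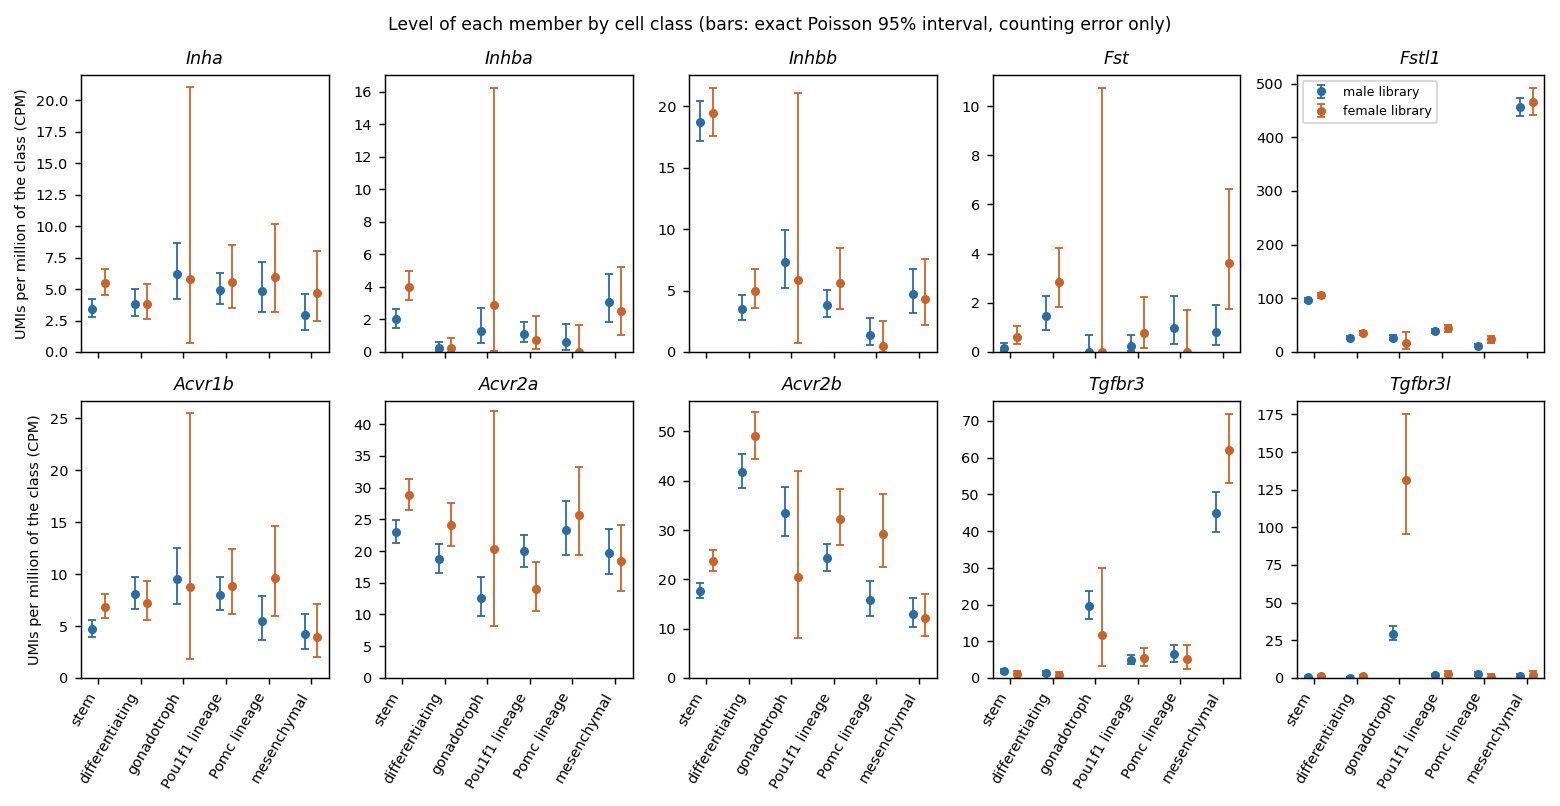
Level of each member (CPM, linear axis from 0) in the 6 classes, with points for the male and the female library and bars for the exact Poisson 95% interval of counting error. *Inhbb* stood at 18.7 and 19.5 CPM in stem cells, *Fstl1* and *Tgfbr3* had their highest levels in mesenchymal cells and *Tgfbr3l* in gonadotrophs, where the female point rests on 24 cells.

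Among the ligand genes, *Inhbb*, the βB subunit, had its highest level of the 6 classes in stem cells. It stood at 18.7 CPM (17.1 to 20.5) in male and 19.5 CPM (17.6 to 21.5) in female stem cells, from 506 and 388 UMIs. It stood at 3.52 and 5.0 CPM in differentiating, 3.81 and 5.59 in *Pou1f1* lineage, 4.71 and 4.33 in mesenchymal, and 1.36 and 0.457 in *Pomc* lineage cells. The stem cell interval lay above those of these 4 classes in both libraries. Cells with no class were at 11.2 and 11.4 CPM. They held 36.5% and 37.8% of the *Inhbb* UMIs, against 32.8% and 39.7% of all UMIs. In gonadotrophs *Inhbb* was at 7.29 CPM (5.18 to 9.96) among male cells and, from 2 UMIs, at 5.83 CPM (0.706 to 21.0) among female ones. The male stem cell level was 2.57 times that of gonadotrophs (1.86 to 3.66). The female ratio of 3.34 had an interval of 0.919 to 27.7, which includes 1.

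*Inhbb* UMIs were spread over many stem cells, 382 of 1599 male and 297 of 1666 female cells, with at most 5 and 7 in a cell. After every cell was thinned to 5000 UMIs, 8.43% of male (7.10 to 9.92) and 8.96% of female stem cells (7.63 to 10.4) had an *Inhbb* UMI, against 23.9% and 17.8% unthinned. The thinned shares were 1.49% and 2.67% in differentiating cells. They were lowest in *Pomc* lineage cells, at 0.495% in the male library and 0 of 126 cells in the female one, which allows a share of up to 2.38%. Median depths were 12829 and 20357 UMIs in male, and 10114.5 and 15505 UMIs in female stem and *Pomc* lineage cells.

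Within stem cells, *Inhbb* was alike in the strata set by *Ednrb* and *Aldh1a2*. Cells with 2 or more *Ednrb* UMIs were at 21.0 and 21.4 CPM, and cells with 3 or more *Aldh1a2* UMIs and no *Ednrb* at 18.1 and 19.5 CPM, with overlapping intervals in both libraries. Male stem cells with at least 2 of 8 cell cycle genes detected were at 17.9 CPM, as were those with none. Female cycling cells were lower, at 13.9 CPM (11.2 to 17.1) against 22.1 CPM (19.3 to 25.2). The thinned shares of these female cells, 5.41% (3.38 to 8.15) and 9.88% (8.09 to 11.9), had overlapping intervals.

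*Inhba*, the βA subunit, was sparse, with 193 UMIs over the 6 classes. Its 54 male and 80 female stem cell UMIs gave 2.0 CPM (1.5 to 2.61) and 4.02 CPM (3.18 to 5.0), and mesenchymal cells were at 3.08 and 2.52 CPM. Differentiating cells held 3 and 2 UMIs, or 0.220 and 0.238 CPM. Stem cells were above differentiating cells by 9.09 times (2.95 to 45.4) in males and 16.9 times (4.52 to 142) in females. The stem and mesenchymal intervals overlapped in both libraries.

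Unlike *Inhbb*, *Inhba* differed between the *Ednrb* and *Aldh1a2* strata by more than counting error. Cells with 2 or more *Ednrb* UMIs were at 2.83 CPM (1.86 to 4.11) in males and 5.92 CPM (4.47 to 7.69) in females. The *Aldh1a2* stratum was at 0.778 CPM (0.336 to 1.53) and 1.39 CPM (0.560 to 2.87), from 8 and 7 UMIs. The intervals of the strata did not overlap in either library. The thinned shares, 1.84% against 0.446% in male and 2.54% against 0.893% in female cells, kept this order, but their intervals overlapped in both.

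**Figure D2:**
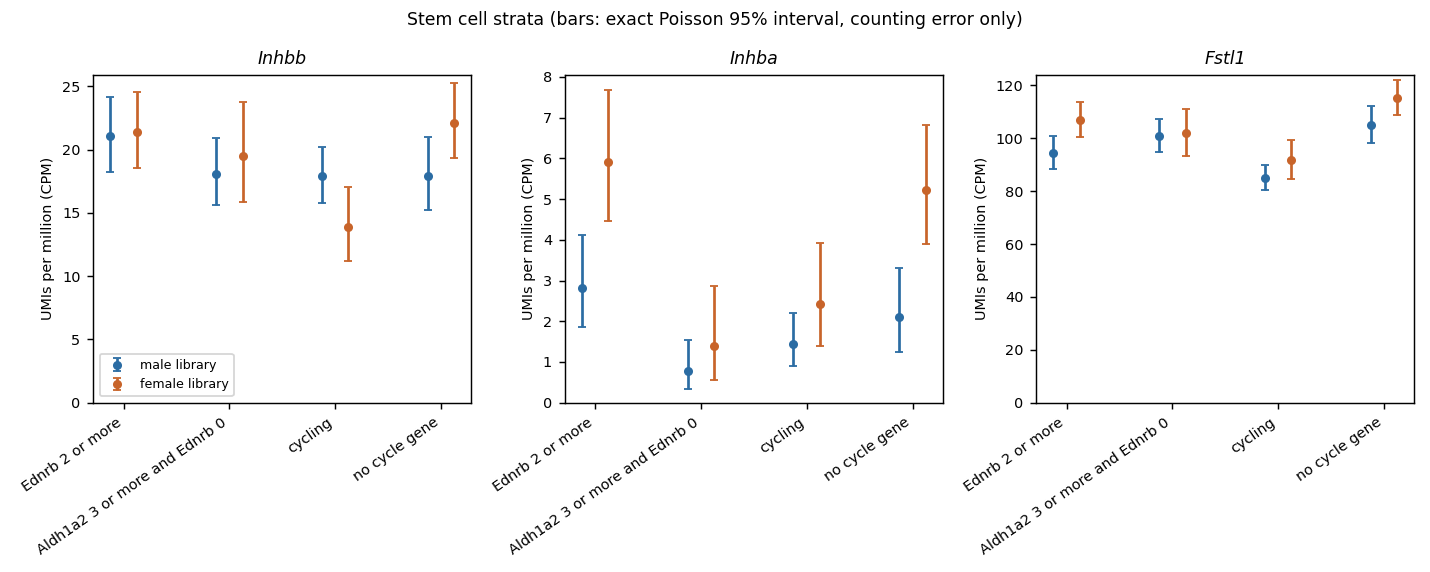
*Inhbb*, *Inhba* and *Fstl1* (CPM, linear axes from 0) in 4 strata of stem cells, with points for each library and bars for the exact Poisson 95% interval. *Inhbb* lay between 13.9 and 22.1 CPM in every stratum, while *Inhba* was at 2.83 and 5.92 CPM in the *Ednrb* stratum and at 0.778 and 1.39 CPM in the *Aldh1a2* stratum.

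*Inha*, the α subunit that is particular to inhibins, was low in every class. Its levels lay between 2.92 CPM in male mesenchymal cells and 6.17 CPM in male gonadotrophs. Male gonadotrophs held 33 *Inha* UMIs (4.25 to 8.66 CPM), just above the interval of male stem cells (2.78 to 4.22). Female gonadotrophs held 2 UMIs, at 5.83 CPM (0.706 to 21.0), which overlaps that of female stem cells (4.49 to 6.60). Classes next to each other in the order of levels had overlapping intervals in both libraries. *Inha* and *Inhbb* were found in the same thinned cell in 1 of 305 male and 0 of 23 female gonadotrophs, and in 3 of 1565 male and 6 of 1652 female stem cells.

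Among the activin-binding proteins, *Fst* was near the limit of detection, with 86 UMIs over the 6 classes. Differentiating cells held 20 male and 24 female UMIs, at 1.47 CPM (0.896 to 2.27) and 2.86 CPM (1.83 to 4.25). Stem cells held 4 and 12 UMIs, at 0.148 and 0.602 CPM. The intervals of these classes did not overlap in either library. The UMIs of differentiating cells were found in 9 male and 16 female cells, with up to 6 and 4 in a cell. Without the male cell with 6 UMIs, male differentiating cells were at 1.03 CPM (0.562 to 1.73). Thinned to 5000 UMIs, 6 of 870 male and 6 of 600 female differentiating cells had an *Fst* UMI (unthinned 1.01% and 2.65%). Thinned stem cells had 0 of 1565, which allows up to 0.192%, and 0.242% (unthinned 0.125% and 0.540%). The thinned intervals of these classes overlapped in the female library only. In gonadotrophs no *Fst* UMI was found, which allows up to 0.561 CPM in males and 8.74 CPM in females. Mesenchymal cells held 5 and 10 UMIs, with intervals of 0.264 to 1.89 and 1.73 to 6.63 CPM.

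*Fstl1* encodes a secreted glycoprotein related to follistatin. It was at 456 CPM (439 to 473) in male and 466 CPM (441 to 493) in female mesenchymal cells. Stem cells came next, at 96.0 and 106 CPM, and the other classes lay between 12.1 and 44.0 CPM. Both steps were larger than the counting intervals in both libraries. A UMI was found in 85.6% and 85.7% of thinned mesenchymal cells, 37.3% and 40.9% of stem cells and 5.45% and 13.5% of *Pomc* lineage cells (unthinned 88.9% and 91.4%, 69.9% and 65.0%, 18.8% and 25.2%). The summed *Lum*, *Pdgfra*, *Pdgfrb*, *Tcf21*, *Col6a1* and *Sparc*, all 6 detected, stood at 97.9 and 141 CPM in stem cells, against 4530 and 5150 CPM in mesenchymal cells. Of these, *Lum* was at 0.222 and 0.0502 CPM and *Pdgfrb* at 0.704 and 1.10 CPM in stem cells, against 199 and 234 CPM and 210 and 187 CPM in mesenchymal cells. Most of the stem cell sum thus came from the other listed markers. The part of mesenchymal RNA in the stem cell level of *Fstl1* was not tested.

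Of the receptors, the type I receptor gene *Acvr1b* was found at a low level in all classes, from 3.97 CPM in female mesenchymal to 9.61 CPM in female *Pomc* lineage cells. In the male library its level in differentiating cells, 8.07 CPM (6.63 to 9.73), was above that in stem cells, 4.70 CPM (3.92 to 5.60). In the female library these were 7.26 and 6.88 CPM, with overlapping intervals. *Acvr2a*, a type II receptor, lay between 12.5 CPM in male gonadotrophs and 28.8 CPM in female stem cells. In the male library the gonadotroph interval (9.70 to 15.9) was below that of stem cells (21.3 to 24.9). In the female library 7 UMIs gave 20.4 CPM (8.20 to 42.0), which overlaps the stem cell interval. The gene overlaps *Orc4* on the opposite strand.

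The other type II receptor gene, *Acvr2b*, had its highest level in differentiating cells. Differentiating cells were at 41.8 CPM (38.5 to 45.4) in males and 49.0 CPM (44.4 to 54.0) in females. Stem cells were at 17.7 CPM (16.1 to 19.3) and 23.7 CPM (21.6 to 26.0). The ratios were 2.37 (2.09 to 2.68) and 2.06 (1.80 to 2.36). The thinned share of cells with a UMI was 18.5% and 23.5% in differentiating and 7.09% and 10.4% in stem cells (unthinned 44.1% and 47.8%, 23.8% and 23.5%). Mesenchymal cells had the lowest thinned shares, 5.19% and 4.90%. The level was alike in differentiating cells with and without *Neurod1* UMIs, at 43.5 and 41.4 CPM among male and 54.2 and 48.4 CPM among female cells. Male gonadotrophs were at 33.5 CPM (28.7 to 38.7), an interval that overlaps that of male differentiating cells. Female gonadotrophs were at 20.4 CPM from 7 UMIs. A wider gonadotroph gate took 739 male and 119 female cells. It gave 34.8 CPM (31.3 to 38.6) in males and 51.5 CPM (41.4 to 63.4) in females. The female interval of the main gate, 8.20 to 42.0 CPM, overlaps that of the wider one. For the female value, choice of gate and counting error thus cannot be told apart.

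The inhibin coreceptor genes had their highest levels in different classes. *Tgfbr3*, which encodes betaglycan, was at 45.0 CPM (39.8 to 50.6) in male and 62.0 CPM (53.1 to 72.0) in female mesenchymal cells. It was at 1.82 and 1.20 CPM in stem and 1.25 and 0.833 CPM in differentiating cells. *Pou1f1* lineage cells were at 4.85 and 5.34 CPM and *Pomc* lineage cells at 6.42 and 5.03 CPM, with overlapping intervals in both libraries. Male *Pou1f1* lineage cells with 20 or more *Gh* UMIs, 71 cells, were at 15.8 CPM (10.3 to 23.1), and the 56 with 20 or more *Prl* UMIs at 5.08 CPM (1.65 to 11.8).

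In male gonadotrophs *Tgfbr3* was at 19.6 CPM (16.1 to 23.8), from 105 UMIs in 77 of 326 cells, which is 10.8 times the stem cell level (7.63 to 15.5). Among female cells 4 UMIs in 3 of 24 cells gave 11.7 CPM (3.18 to 29.8) and a ratio of 9.67 (2.44 to 28.2). Without the cell that held 2 of these UMIs the female level was 6.08 CPM (0.736 to 22.0), which overlaps that of female stem cells (0.772 to 1.79). The male gonadotroph interval lay above those of stem, differentiating, *Pou1f1* lineage and *Pomc* lineage cells and below that of mesenchymal cells. The 6 summed mesenchymal markers, of which *Lum* was at 0, were at 21.7 CPM in male gonadotrophs, below the 97.9 CPM of male stem cells. The part of mesenchymal RNA in the gonadotroph level of *Tgfbr3* was not tested. After thinning, 11.8% of male gonadotrophs (8.41 to 16.0) and 0 of 23 female ones had a *Tgfbr3* UMI, which allows a share of up to 13.0% (unthinned 23.6% and 12.5%). Thinned mesenchymal cells were at 19.4% and 30.1% and stem cells at 1.34% and 0.484%.

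*Tgfbr3l*, the other inhibin coreceptor gene, was above 3 CPM in gonadotrophs alone among the 6 classes. Its 157 male and 45 female gonadotroph UMIs gave 29.3 CPM (24.9 to 34.3) and 131 CPM (95.6 to 175). The other classes lay between 0.294 CPM in male differentiating and 2.54 CPM in female *Pou1f1* lineage cells. The male gonadotroph to stem cell ratio was 34.4 (22.1 to 55.9). The female ratio was 100 (60.7 to 170), but 1 cell held 41 of the 45 UMIs. Without that cell 4 UMIs remained, at 12.3 CPM (3.35 to 31.5), above the female stem cell level of 1.30 CPM (0.852 to 1.91). After thinning, 10.2% of male and 13.0% of female gonadotrophs had a *Tgfbr3l* UMI (unthinned 18.4% and 12.5%), against 0.230% of male differentiating and 0 of 126 female *Pomc* lineage cells, the lowest shares. The gene lies at chr8:4248214-4251423 on the + strand and overlaps *Gm49320* on the same strand, for which no UMI was counted in any class. Reads that fit both genes would be counted for neither, so the *Tgfbr3l* counts are uncertain.

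*Tgfbr3l* was concentrated in gonadotrophs that carried *Lhb*, the β subunit gene of luteinising hormone and one of the gate genes. In the male library 34 of 45 gonadotrophs with 3 or more *Lhb* UMIs had a *Tgfbr3l* UMI, or 75.6% (60.5 to 87.1). Of the 281 with fewer *Lhb* UMIs 26 had one, or 9.25% (6.13 to 13.3). The 45 cells held 125 of the 157 UMIs. In the female library the order was the same, with 3 of 4 cells against 0 of 20. Of those 3 cells, 1 held a single *Tgfbr3l* UMI and no *Gnrhr* or *Foxl2* UMI. The cell of the 4 without *Tgfbr3l* had 531 UMIs in all. The male strata had like depths, with medians of 15999 and 14472 UMIs. *Fshb*, the β subunit gene of follicle-stimulating hormone, was detected in 8 male gonadotrophs, of which 5 had *Tgfbr3l*, and in 4 female ones, of which 2 had it. The female cell with 41 *Tgfbr3l* UMIs also held 167 *Lhb* and 92 *Fshb* UMIs, of 17748 UMIs in all.

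*Tgfbr3* and *Acvr2b* divided the male gonadotrophs less sharply. A *Tgfbr3* UMI was found in 42.2% of the cells with 3 or more *Lhb* UMIs (27.7 to 57.8) and 20.6% of those with fewer (16.1 to 25.8). For *Acvr2b* there were 18 of 45 cells (25.7% to 55.7%) against 36.3% (30.7 to 42.2), and for *Inhbb* 11.1% (3.71 to 24.1) and 9.61% (6.43 to 13.7), both with overlapping intervals. The 435 male cells that only the wider gate took in carried *Acvr2b* at 36.8 CPM (31.9 to 42.2), *Tgfbr3* at 4.35 CPM (2.79 to 6.47) and *Tgfbr3l* at 1.99 CPM (0.995 to 3.57). In these cells the receptor gene thus overlapped the level of the gonadotroph class, and both coreceptor genes were below it.

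**Figure D3:**
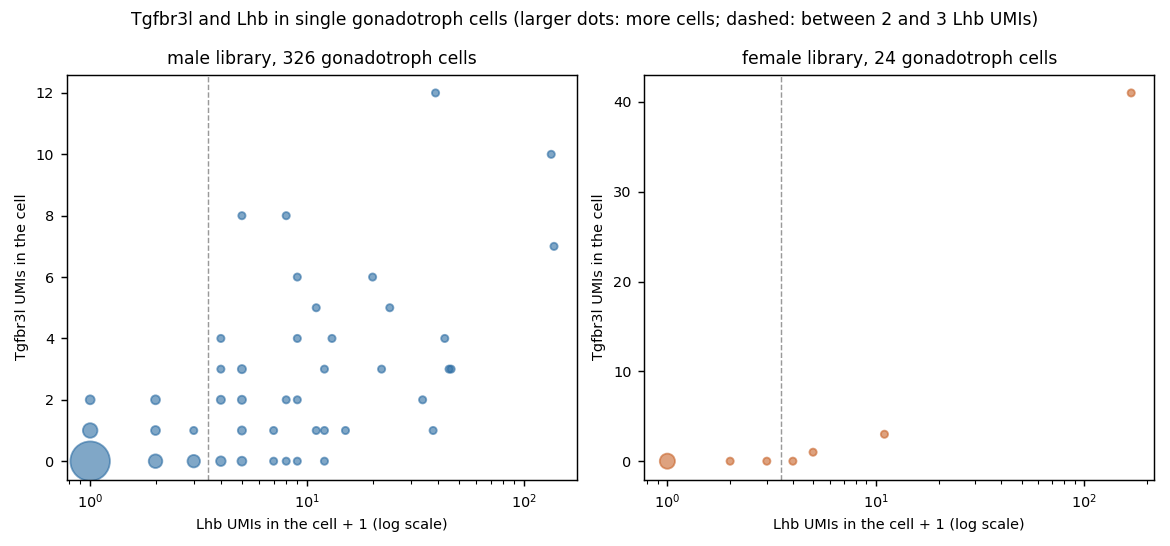
Each dot places gonadotroph cells of 1 library by their *Lhb* UMIs plus 1 (log axis) and *Tgfbr3l* UMIs (linear axis), in a male and a female panel. In the male library 34 of the 45 cells with 3 or more *Lhb* UMIs had a *Tgfbr3l* UMI, and 1 female cell had 41.

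The members were next counted against stem cells by a rule of size: a difference of 2-fold or more in CPM plus 1, the same way in both libraries, for features with 20 or more UMIs. In differentiating cells 2 of 10 members were higher (*Fst*, *Acvr2b*), against 4.54% of 15086 features, and 3 lower (*Inhba*, *Inhbb*, *Fstl1*), against 10.8%. *Fst* lost this call with doubled gate minimums, thinned cells or 10 CPM added, and *Acvr2b* with mixed cells included or 10 CPM added. In gonadotrophs 9 members could be compared, of which 2 were higher (*Tgfbr3*, *Tgfbr3l*), against 9.08% of features, and 2 lower (*Inhbb*, *Fstl1*), against 11.5%. *Tgfbr3* and *Inhbb* each lost the gonadotroph call with thinned cells or 10 CPM added. In *Pou1f1* lineage cells 1 of 10 was higher (*Tgfbr3*), against 7.7%, and 2 lower (*Inhbb*, *Fstl1*), against 7.63%. That *Tgfbr3* call was lost with doubled gate minimums, thinned cells, mixed cells included or 10 CPM added. *Pomc* lineage cells gave the same 3 members, with *Tgfbr3* higher against 8.2% and *Inhbb* and *Fstl1* lower against 14.9%, and *Tgfbr3* lost the call with thinned cells or 10 CPM added. In mesenchymal cells 2 were higher (*Fstl1*, *Tgfbr3*), against 9.43%, and 1 lower (*Inhbb*), against 10.8%. *Inhbb* was the only member lower than in stem cells by this rule in all 5 classes. The share of all features lower in all 5 was not counted. With 10 CPM added *Inhbb* kept the call in *Pomc* lineage cells alone, and *Inhba* lost it in differentiating cells. The female gonadotroph side of the *Inhbb* call rests on 2 UMIs. The counts are small, and all 5 comparisons use the same stem cells.

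The median log2 fold of the members that could be compared in differentiating cells was −0.31 (male) and −0.26 (female), against −0.02 and −0.05 over all features. In gonadotrophs it was 0.69 and −0.21 (all features 0.04 and −0.16), and in *Pou1f1* lineage cells 0.26 and 0.08 (all features 0.06 and 0.02). In *Pomc* lineage cells it was 0.10 and −0.41 (all features −0.33 and −0.15), and in mesenchymal cells 0.14 and −0.35 (all features −0.04 and −0.11). The sign differed between the libraries in gonadotroph, *Pomc* lineage and mesenchymal cells, so the list as a whole had no common direction there.

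**Figure D4:**
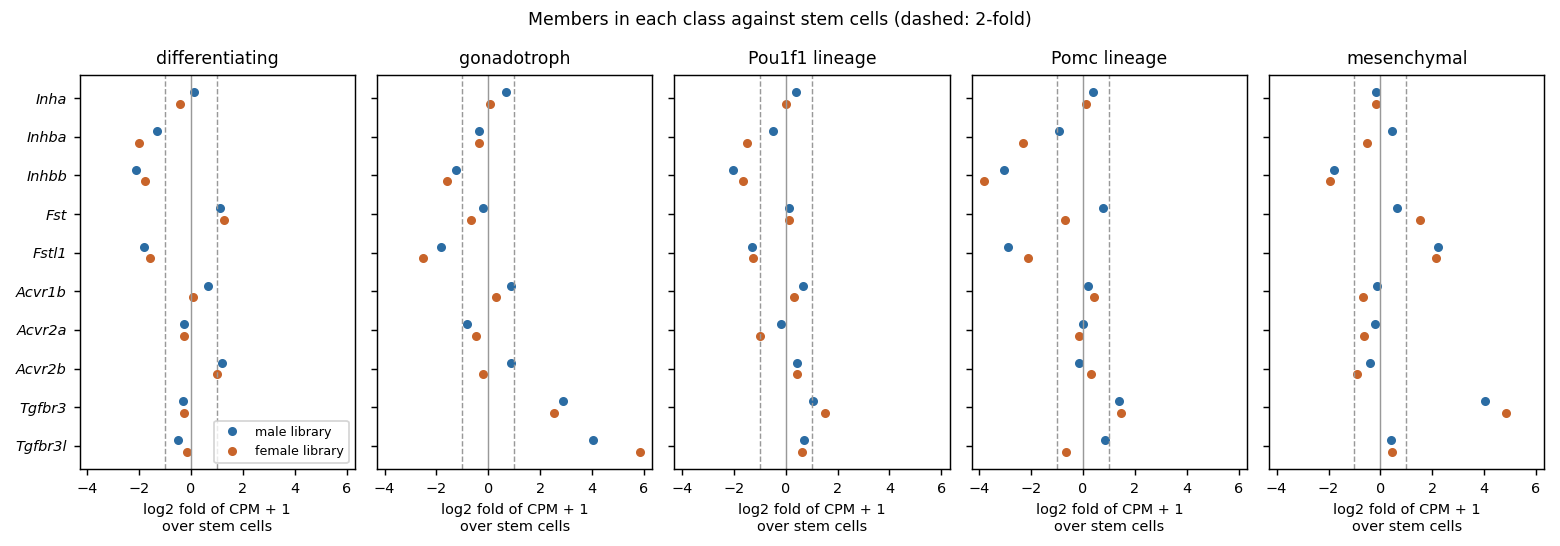
Log2 fold of CPM plus 1 over stem cells for each member in the 5 other classes, with points for each library and dashed lines at 2-fold. *Inhbb* lies left of zero in all 5 panels, *Tgfbr3* reaches 4.03 and 4.84 in mesenchymal cells and *Tgfbr3l* 4.03 and 5.84 in gonadotrophs, and *Fst* had too few UMIs to be compared in gonadotrophs.

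A list of 47 other genes of the pathway was counted by the same rule. In differentiating cells 4 were higher and 9 lower than in stem cells (41 compared), and in gonadotrophs 8 and 12 (39). The counts were 7 and 5 in *Pou1f1* lineage (40), 3 and 11 in *Pomc* lineage (39), and 9 and 2 in mesenchymal cells (39). Over all features, 4.54% were higher and 10.8% lower in differentiating cells, and 9.08% and 11.5% in gonadotrophs. These shares were 7.7% and 7.63% in *Pou1f1* lineage, 8.2% and 14.9% in *Pomc* lineage, and 9.43% and 10.8% in mesenchymal cells. The 8 in gonadotrophs include *Fshb*, *Gnrhr*, *Lhb* and *Cga*, which set the class, and *Foxl2*, a transcription factor that cooperates with SMADs at *Fshb*. Among the ligand genes, *Tgfb2*, *Bmp2* and *Bmp7* were lower in gonadotrophs than in stem cells, and *Tgfb1* and *Bmp4* higher in mesenchymal cells.

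Of 10 other receptor and coreceptor genes, 3 of 8 compared passed the rule in gonadotrophs (*Bmpr1b* higher, *Tgfbr2* and *Igsf1* lower). In *Pou1f1* lineage cells 3 of 9 passed (*Acvr1c* and *Igsf1* higher, *Tgfbr2* lower), and in *Pomc* lineage cells 2 of 8 (*Tgfbr2* and *Bmpr2* lower). Of 8 in mesenchymal cells, *Acvr1*, *Tgfbr2* and *Eng* were higher and *Igsf1* lower. Of 9 in differentiating cells, *Tgfbr2* and *Igsf1* were lower. The shares over all features are those given above for the whole list. *Acvr1c*, which encodes the type I receptor ALK7, was at 19.4 and 8.14 CPM in *Pou1f1* lineage cells and below 1 CPM in the other 5 classes. *Igsf1*, a membrane protein gene once proposed as an inhibin coreceptor, was at 109 and 125 CPM in *Pou1f1* lineage, 20.3 and 16.1 CPM in stem and 4.49 and 2.91 CPM in gonadotroph cells. *Tgfbr2*, the type II receptor of TGFβ, was at 65.3 and 63.4 CPM in mesenchymal and 14.3 and 15.5 CPM in stem cells. Of the 5 SMAD signal carriers *Smad3* alone passed the rule. It was at 8.59 and 9.94 CPM in stem cells, 3.11 and 2.29 CPM in *Pomc* lineage cells, and 1.68 CPM in male gonadotrophs, with 0 UMIs in female ones, which allows up to 8.74 CPM.

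Among the inhibitors, *Smad7*, itself a target of SMAD signalling, was at 50.7 and 53.5 CPM in stem cells and 12.1 and 11.7 CPM in gonadotrophs, and passed the rule as lower in all classes but mesenchymal cells. *Fstl4*, a follistatin-like gene, was at 0.926 and 0.502 CPM in stem, 18.1 and 14.4 in differentiating, 26.4 and 67.0 in gonadotroph and 19.1 and 26.7 in *Pou1f1* lineage cells. *Fstl3*, which binds activin as follistatin does, was higher in mesenchymal cells, at 6.33 and 7.21 CPM, and lower in differentiating cells, at 0.294 and 0.476 CPM, than in stem cells, at 2.11 and 2.26 CPM. In differentiating cells *Fstl3* and *Fst* thus went opposite ways.

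The features whose pattern was most like a member were found by Pearson's r of log2(CPM + 1) over 12 points, the 6 classes in 2 libraries, among 13944 features with 100 or more UMIs. *Tgfbr3l* was most like *Lhb* (r = 0.98), *Gm10643* (0.97) and *Fshb* (0.97), and *Lhb* and *Fshb* are genes of the gate. In female gonadotrophs 1 cell held 41 of 45 *Tgfbr3l*, 167 of 187 *Lhb* and 92 of 100 *Fshb* UMIs. That point thus rests mostly on 1 cell for these genes. *Inhbb* was most like *Cd59a*, *Iscu* and *Epha1* (all 0.95), *Inhba* like *Zfand3* (0.95), *Fam234a* (0.94) and *Itgb4* (0.94), and *Fstl1* like *Myl9*, *Col4a2* and *Ext2* (all 0.99). *Tgfbr3* was most like *Gpx4* (0.96) and *Scarb2* (0.95), *Acvr2b* like *Arid4b*, *Bclaf1* and *Gm11335* (all 0.93), and *Acvr1b* like *Chd4* (0.96). For *Inha* and *Acvr2a* the highest r was lower, 0.88 with *4930481A15Rik* and 0.87 with *Zfp975*. The 12 points share libraries, depth and gates.

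The male and female libraries were set side by side within each class. Sex, animals, sort and library preparation cannot be told apart here. In stem cells *Inhbb* was at 18.7 and 19.5 CPM, a female to male ratio of 1.04 (0.908 to 1.19). *Inhba* was at 2.0 and 4.02 CPM, a ratio of 2.01 (1.40 to 2.89). For *Inha*, *Inhba*, *Fstl1*, *Acvr1b*, *Acvr2a* and *Acvr2b*, of 9 members compared in stem cells, the female level was higher with an interval beyond 1, against 16.8% of 14412 features. Their ratios lay between 1.10 for *Fstl1* and 2.01 for *Inhba*. *Fst*, with 4 and 12 UMIs, had too few to be compared by that rule and a ratio of 4.06 (1.23 to 17.3).

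No member of those compared differed by 2-fold or more in CPM plus 1 between the libraries in stem (0.749% of features), differentiating (0.859%), *Pou1f1* lineage (1.81%), *Pomc* lineage (4.29%) or mesenchymal cells (3.54%). In gonadotrophs, where 14.9% of features passed, *Tgfbr3l* was higher in the female library by 4.47 times (3.13 to 6.26). Without the female cell with 41 UMIs the order turned: the male to female log2 difference of CPM plus 1 was −2.12 with it and 1.19 without it. In *Pomc* lineage cells *Acvr2b* was at 15.8 and 29.3 CPM and *Fstl1* at 12.1 and 23.3 CPM, with female to male ratios of 1.86 (1.32 to 2.61) and 1.93 (1.31 to 2.85). These were 2 of 6 members compared, against 20% of features with the female level higher and the interval beyond 1.

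By the same interval, 4 of 8 members compared were higher in female differentiating cells, against 10.9% of features. They were *Fst* (1.95, 1.03 to 3.71), *Fstl1* (1.31, 1.12 to 1.53), *Acvr2a* (1.28, 1.06 to 1.55) and *Acvr2b* (1.17, 1.03 to 1.33). In mesenchymal cells *Tgfbr3* alone of 8 was higher in the female library (1.38, 1.13 to 1.67), against 7.08% of features. *Fst* in mesenchymal cells (5 and 10 UMIs) and *Tgfbr3l* in differentiating cells (4 and 9) had too few UMIs to be compared. Their female to male ratios were 4.44 (1.38 to 16.6) and 3.65 (1.02 to 16.2). *Pou1f1* lineage cells had *Acvr2b* higher in the female library (1.33, 1.07 to 1.64), against 7.22%, and *Acvr2a* higher in the male one, at 19.9 and 14.0 CPM, against 15.6%. *Tgfbr3l* was the only such member of 8 in gonadotrophs, against 3.04%, and rests on the cell named above.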

How the data were processed

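Single-cell RNA of sorted P3 pituitary cells was measured in 1 male and 1 female library. Reads were aligned to mm10 plus eGFP by the authors (STAR 2.5.1b within Cell Ranger 3.0.2), who deposited the UMI count per gene and barcode as whole numbers without normalization. The submitters' processing notes also name R 3.6.0 and Seurat 3 and 4. The files held 10569 male and 5796 female barcodes. The 10410 and 5711 cells kept after the removal described next held 105883748 and 62830305 UMIs.

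After the methods, barcodes with fewer than 50 genes or with mitochondrial UMIs over the library mean plus 3 SD were removed, 159 male and 85 female. Doublets were kept, and cells with the highest Scrublet scores were left out as an alternative. Classes were gated on raw UMIs. Mesenchymal cells had 10 or more of *Dcn*, *Col1a1*, *Col1a2* and *Col3a1* (3 of 4 detected), gonadotrophs 10 or more *Cga* and 2 or more of *Gnrhr*, *Lhb*, *Fshb* and *Nr5a1* with no *Pou1f1* and under 3 *Tshb*, *Pou1f1* lineage cells 2 or more *Pou1f1*, and *Pomc* lineage cells 50 or more *Pomc* and 1 or more of *Pax7* and *Tbx19*. Cells in several of these gates (36) and cells with 3 or more *Pecam1*, *Cdh5*, *Ptprc* and *Tyrobp* UMIs (47) were left out. Of the rest, differentiating cells had 2 or more *Lef1*, and stem cells 3 or more *Sox2*, 1 or more *Sox9* and no *Lef1*, with a further marker condition that is not reported here.

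UMIs were summed per class and library and scaled to CPM. Levels have exact Poisson, ratios exact conditional binomial and shares exact Clopper-Pearson 95% intervals. Thinning to 5000 UMIs (seed 1) left out shallower cells. A count of 0 is given the limit of 3 counts. All members were named, and other genes by the list of 47 and the likeness rule. The members and lists were chosen with earlier results of these data known. Alternatives were doubled gate minimums, a minimum of 1000 genes, all barcodes, scaling without hormone and mitochondrial genes, mixed cells in each class, 10 CPM added, no minimum of UMIs and 1.5-fold. The wider gonadotroph gate (10 or more *Cga* and 1 or more of *Gnrhr*, *Lhb*, *Fshb*, *Nr5a1* and *Foxl2*, with under 2 *Lef1* and otherwise the same) and the leaving out of 1 female cell were chosen after seeing the data. Gene positions come from mm10 annotation. The fold rule, ratios and thinning were tested on simulated data. For the fold rule and ratios, the simulation used the totals of stem and mesenchymal cells and changed features at higher levels only. Ratio intervals were checked in the male library alone. Genes at low levels and the small female gonadotroph class were thus not covered. Python 3.11.15, numpy 2.4.6, scipy 1.17.1, pandas 2.3.3 and scanpy 1.11.5 were used.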

Additional observations from a re-analysis of the deposited data

Results flagged for a closer look

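The 30 male and 17 female cells set apart for 3 or more UMIs of *Pecam1*, *Cdh5*, *Ptprc* and *Tyrobp* enter no comparison above. In them *Fstl1* in both libraries, and *Fst* in the female one, had an interval above that of every class. *Fstl1* was at 763 CPM (690 to 841) in the male and 686 CPM (586 to 798) in the female cells. Of these cells, 26 male and 14 female had 10 or more UMIs of the mesenchymal gate genes, and they held 395 of 404 and 160 of 167 *Fstl1* UMIs. *Fst* was at 28.8 CPM (11.6 to 59.2) in the female cells, from 7 UMIs in 1 cell with 30 *Pecam1* and *Cdh5* UMIs and 0 of the mesenchymal gate genes. No *Fst* UMI was found in the 30 male cells, which allows up to 5.66 CPM. *Tgfbr3*, at 45.3 CPM (29.0 to 67.4) and 45.2 CPM (22.6 to 80.8), overlapped the mesenchymal class.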

How the results depend on the processing

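Of 104 counts of members past 2-fold under an alternative, 87 stayed within 1.5 times the main count and 17 moved. Of 304 folds against stem cells, 65 moved and 1 reversed. Of 40 differences between the libraries, 4 moved and 1 reversed. Of 120 thinned shares, 51 moved. With 10 CPM added in place of 1, which shrinks folds of low genes, the members higher than in stem cells numbered 0 in differentiating, 1 in gonadotroph, 0 in *Pou1f1* lineage and 0 in *Pomc* lineage cells, and those lower 1 in differentiating, 1 in gonadotroph, 1 in *Pou1f1* lineage and 0 in mesenchymal cells. With cells thinned to 5000 UMIs, the members higher were 1 in differentiating (without *Fst*), 1 in gonadotroph (without *Tgfbr3*), 0 in *Pou1f1* lineage and 0 in *Pomc* lineage cells. Thinning also changed the members lower in gonadotrophs to 3, with *Inhba* and *Acvr2a* gained and *Inhbb* lost. With doubled gate minimums the members higher were 1 in differentiating (without *Fst*) and 0 in *Pou1f1* lineage cells. With mixed cells counted in each class they were 1 in differentiating (without *Acvr2b*) and 0 in *Pou1f1* lineage cells. At 1.5-fold, 2 were higher in *Pou1f1* lineage cells. Apart from the added CPM, the cause was not tested. *Tgfbr3* in female gonadotrophs turned from a log2 fold of 2.52 over stem cells to −0.98 with thinned cells, where 0 of 23 cells had a UMI. *Tgfbr3l* between the libraries turned from −2.12 (male over female, log2) to 1.19 without 1 female cell, and was −0.84 with the wider gonadotroph gate. *Tgfbr3l* in gonadotrophs stayed above stem cells under every alternative run, by a log2 fold of 1.86 or more in the male and 2.53 or more in the female library. *Inhbb* stayed below its stem cell level in all 5 classes and both libraries under every alternative run, by less than 2-fold with 10 CPM added in 4 classes and with thinned cells in female gonadotrophs (−0.24).

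No paired analysis was possible because each sex has 1 library and no test was made. Depth limits *Fst* and *Inhba*, and the number of cells limits every female gonadotroph value.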
